A study of Mus musculus with 80 samples.

Results

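The 6 genes described here make GABA, load it into vesicles, break it down or form the GABA-B receptor. They are Gad1, Gad2, Slc32a1, Abat, Gabbr1 and Gabbr2, chosen by name, and all 6 were among the 25160 genes of the expression table. The table covers 80 single cells of the dorsomedial striatum of adult mice heterozygous for 2 BAC transgenes, Drd1a-TdTomato and Drd2-EGFP, in which regulatory sequence of a dopamine receptor gene drives a fluorescent protein. Each cell was sorted by its reporter, so every group carried both transgenes. The 40 cells labelled Drd1a-TdTomato are called D1 MSN, for medium spiny neurons that project along the direct pathway. Of the 40 cells labelled Drd2-EGFP, 38 are called D2 MSN and 2 had Chat (choline acetyltransferase, which makes acetylcholine) above 100 TPM and are called cholinergic cells. The labels do not tell which animal a cell came from, so each group is 1 sample, cells are not replicates, and differences are given as values without a test.

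GABA is the transmitter of striatal projection neurons, the MSN. Glutamate decarboxylase converts glutamate to GABA in forms of different molecular weight, GAD67 from Gad1 and GAD65 from Gad2, of which GAD65 lies mostly at nerve terminals. The vesicular transporter VGAT, from Slc32a1, fills synaptic vesicles with GABA, and GABA transaminase, from Abat, breaks GABA down in mitochondria. The GABA-B receptor is a G protein-coupled heterodimer in which the Gabbr1 subunit binds GABA and the Gabbr2 subunit carries the receptor to the surface and couples it to the G protein.

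The reporter labels were set beside defining markers. Drd1 exceeded 1 TPM in 38 of 40 cells of the D1 subtype and 3 of 38 of the D2 subtype, and Drd2 in 2 and 26. Ppp1r1b (DARPP-32, a marker of MSN) was above 1 TPM in all MSN, averaging 1583 TPM in the D1 and 1754 TPM in the D2 subtype, against 3.63 and 33.0 TPM in the cholinergic cells. A median of 5722 genes per D1 MSN (648 to 8657) and 4927.5 per D2 MSN (1215 to 7942) were above 1 TPM, against 10251 and 10912 in the cholinergic cells. The cells in 2 wells, both labelled Drd1a-TdTomato, stood apart. On plate FACS051_5, the cell in well D04 had 13896 TPM of summed astrocyte markers (5 of 5 above 1 TPM, with at most 225.0 TPM in any other MSN). Its summed MSN markers were 134.4 TPM (median of the other MSN 3377 TPM). Its summed oligodendrocyte markers were 347.9 TPM (3 of 4 above 1 TPM, with at most 188.3 TPM in any other MSN). On plate FACS086_4, the cell in well B02 had the fewest genes, 648, and 3.65 TPM of summed MSN markers. The 5 cholinergic markers in the table summed to at most 15.7 TPM in any MSN. The 4 matched markers of other GABA interneurons summed to at most 325.0 TPM, a value set by 1 D1 MSN. That sum rested mainly on Cck, whose mean over the D1 subtype was 15.1 TPM. The means of Sst, Pvalb and Nos1 over the same cells were 0.06, 0.05 and 0.11 TPM. For the 3 matched markers of cortical excitatory neurons, the highest sum was 147.3 TPM, from a cell of the D1 subtype. Plate FACS051_5 held 18 D1 MSN, 16 D2 MSN and the 2 cholinergic cells, plate FACS086_4 held 21 and 19 MSN, and plate FACS086_9 held 1 and 3.

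The members fell into an abundant and a sparse set. Gad1, Gad2, Gabbr1 and Abat averaged 213.7, 165.0, 152.0 and 97.5 TPM over the 78 MSN. Slc32a1 and Gabbr2 averaged 7.17 and 5.69 TPM. TPM are scaled by transcript length, but the study describes reads gathered at the 3' end of transcripts, so the order of levels between genes is approximate. Within each set the cells overlapped widely. Over the 78 MSN the SDs were near the means in the abundant set (206.6 TPM for Gad1 and 105.3 TPM for Abat) and above them in the sparse set (11.5 TPM for Slc32a1 and 15.7 TPM for Gabbr2), so neighbours in the order did not stand apart beyond their spread. The mean of Gad1 lay above that of 86.6% of the 3448 genes found above 1 TPM in at least 50% of MSN, and the mean of Slc32a1 above that of 5.68%. Between 0 and 6 members were above 1 TPM in a cell: 10 MSN had 6, 29 had 5, 24 had 4 and 15 had fewer. The only MSN with no member above 1 TPM was the D1 MSN with the fewest genes.

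**Figure D1:**
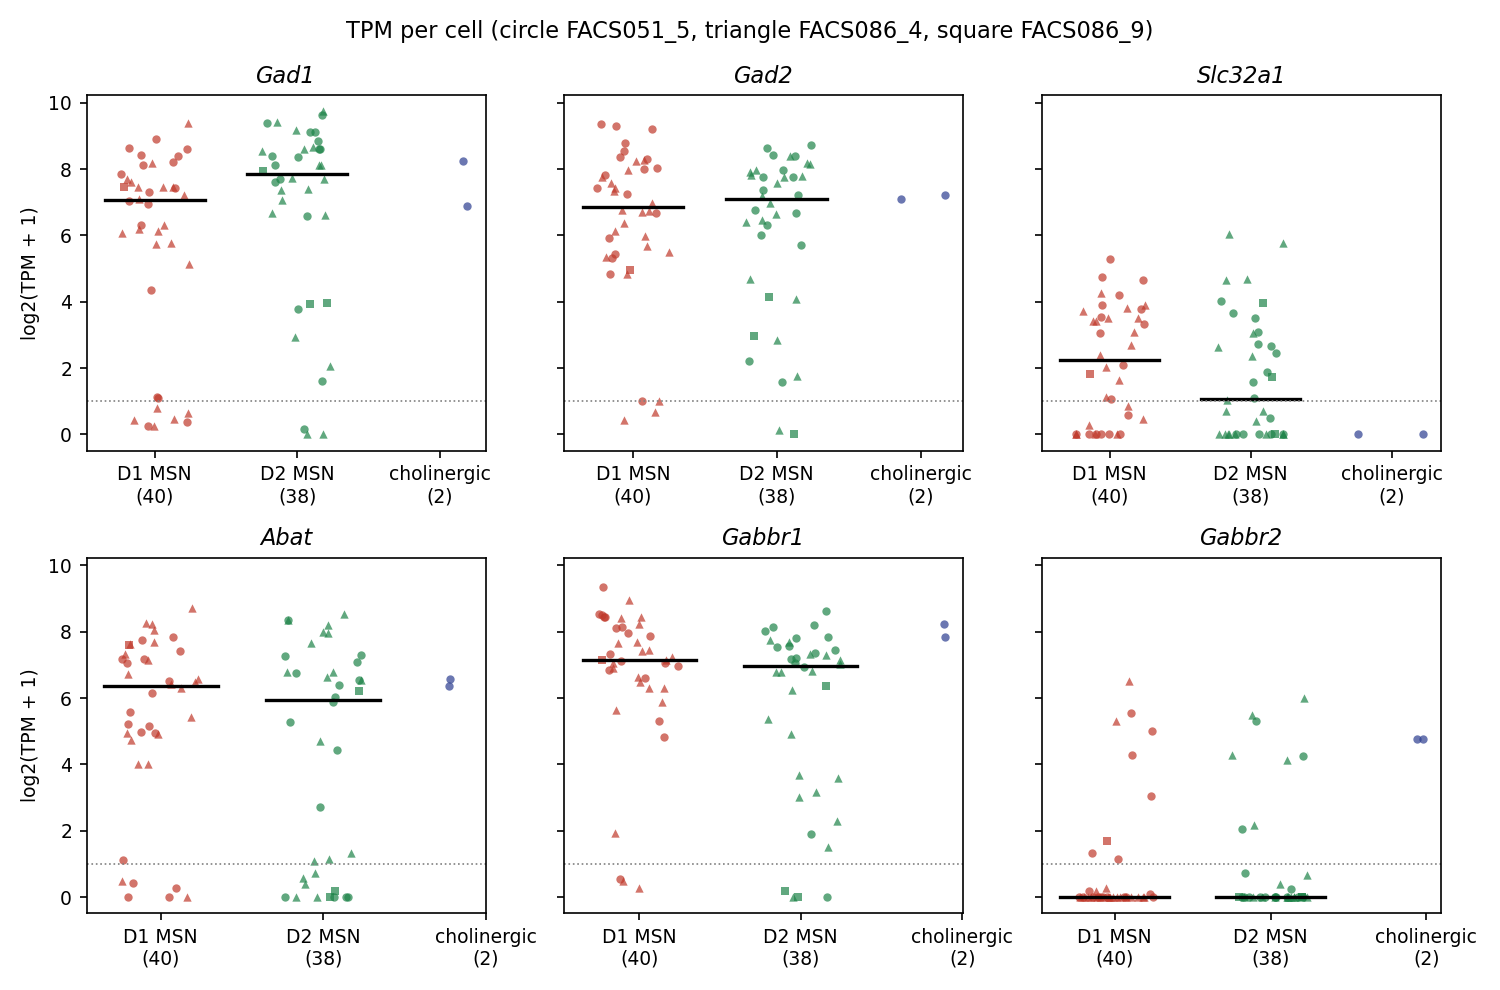
Level of each member in each cell as log2(TPM + 1), with 1 point per cell, the plate given by the point's shape, medians as black bars and 1 TPM as a dotted line. Gad1, Gad2, Abat and Gabbr1 lie mostly well above the line, most cells have Gabbr2 at 0, and Slc32a1 is at 0 in both cholinergic cells.

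Between the MSN subtypes, 0 of the 6 members passed a log2 fold of 1 in either direction. Over the 14631 genes tested, 18.4% had a fold above 1 (D1 MSN higher) and 12.9% a fold below -1 (D2 MSN higher). The median fold of the members was 0.15, beside 0.08 for all genes tested. The choice of average bears on this count: with the difference of the mean log2 values, which gives more weight to cells at 0, 3 members passed 1, Abat and Gabbr1 with D1 MSN higher and Gad1 with D2 MSN higher. By this measure 4.71% of all genes tested passed 1 with D1 MSN higher and 1.67% with D2 MSN higher, and 9.19% and 3.07% of the 3448 genes found in at least 50% of MSN, which include all 3. Gad1 was the one member with a negative fold over all plates. At a limit of 0.5, Gabbr1 had a fold above it, as did 32.4% of all genes tested, and Gad1 one below -0.5, as did 24.9%.

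**Figure D2:**
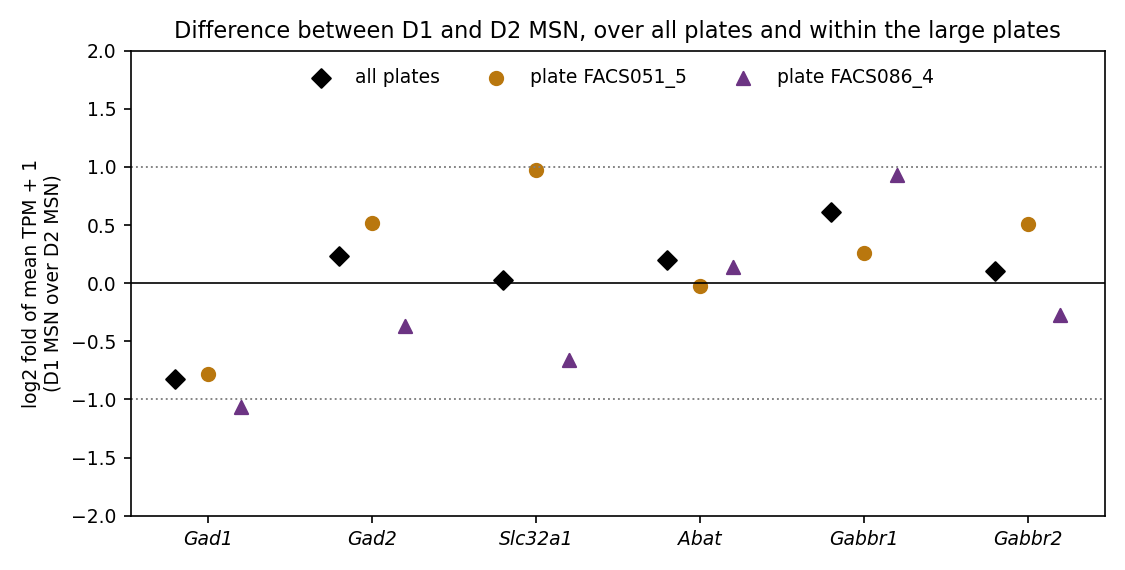
Log2 fold of the mean TPM + 1 in D1 MSN over that in D2 MSN for each member, over all plates (diamonds) and within the large plates FACS051_5 (circles) and FACS086_4 (triangles); dotted lines mark folds of 1 in size. Gad1 is below 0 and Gabbr1 above 0 at all 3 points, while Gad2, Slc32a1, Abat and Gabbr2 take opposite signs on the plates.

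Gad1 was higher in D2 MSN on average. It ranged from 0.20 to 664.3 TPM in D1 MSN with a median of 133.3 TPM, and from 0 to 852.7 TPM in D2 MSN with a median of 229.3 TPM. The groups overlapped over most of their range: 25 of 38 D2 MSN lay above the D1 median, 10 of 40 D1 MSN above the D2 median, and 3 D2 MSN above every D1 MSN. The means were 155.0 ± 153.1 TPM (SD, 40 cells) and 275.6 ± 237.5 TPM (SD, 38 cells), a log2 fold of -0.83. Within plate FACS051_5 the means were 190.7 and 328.3 TPM (fold -0.78), and within plate FACS086_4 they were 123.6 and 260.2 TPM (fold -1.07). The fold kept its sign under all 13 alternatives, from -1.01 to -0.61, and was -0.79 without the cell holding astrocyte markers, in which Gad1 was at 0.20 TPM. A change of pseudocount alone cannot reverse the sign, and several alternatives share most of their cells, so the 13 are not separate checks. Of the 3448 genes found in at least 50% of MSN, 4.84% had a lower fold than Gad1. In the same set, 6.29% of genes had a fold below -0.5 over all MSN and on both large plates, a rule that Gad1 meets and that was set after its values were seen.

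The shares of cells with Gad1 had overlapping intervals. Among D1 MSN, 33 of 40 exceeded 1 TPM (82.5%, 95% interval 67.2 to 92.7), and among D2 MSN, 35 of 38 did (92.1%, 78.6 to 98.3). A level of 100 TPM was exceeded by 22 cells of the D1 subtype and 27 of the D2 subtype. A processed copy, Gad1-ps, was at most 0.77 TPM in any cell. Gad1 lies on chromosome 2 at 70553072 to 70602014 on the plus strand (GRCm38), where the annotation also has an antisense gene, Gad1os. Reads from the opposite strands could not be told apart here.

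For Gad2, the subtypes lay close together. It ranged from 0.36 to 654.1 TPM in D1 MSN (median 115.7 TPM) and from 0 to 423.0 TPM in D2 MSN (median 134.7 TPM). The highest values belonged to D1 MSN, 4 of which lay above every D2 MSN, while the medians were in the opposite order. The means were 177.8 ± 172.8 TPM and 151.4 ± 124.1 TPM (SD), a log2 fold of 0.23 that was 0.52 within plate FACS051_5 and -0.37 within plate FACS086_4. All but 2 cells of each subtype had Gad2 above 1 TPM. The gene lies on chromosome 2 at 22622205 to 22693874, plus strand.

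Most MSN held transcripts of both decarboxylases. Gad1 and Gad2 were above 1 TPM together in 66 of 78 MSN (84.6%, 74.7 to 91.8), Gad2 alone in 8, Gad1 alone in 2 and neither in 2. The cells with Gad2 alone were 5 D1 MSN and 3 D2 MSN, those with Gad1 alone were D2 MSN, and those with neither were D1 MSN. Above 10 TPM, 57 MSN had both.

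Among the cells measured, Gad1 exceeded Gad2 more often in D2 than in D1 MSN, with intervals that overlapped. Among D1 MSN, 14 of 40 cells had more Gad1 than Gad2 (35.0%, 20.6 to 51.7), and among D2 MSN, 25 of 38 did (65.8%, 48.6 to 80.4). The counts were 6 of 18 against 11 of 16 within plate FACS051_5, and 7 of 21 against 12 of 19 within plate FACS086_4. Of the summed TPM of both genes, Gad1 made up 46.6% over D1 MSN and 64.5% over D2 MSN, with 42.4% and 64.5% within plate FACS051_5 and 51.7% and 63.6% within plate FACS086_4. The sum itself ran from 0.71 to 987.7 TPM in D1 MSN (median 271.5 TPM) and from 12.8 to 1131 TPM in D2 MSN (median 410.2 TPM), and 33 cells of each subtype exceeded 100 TPM. The D1 MSN with the lowest sums included the cell with few genes (1.16 TPM) and the cell with astrocyte markers (1.21 TPM). They also included the cells in wells A01 (0.71 TPM) and A09 (1.22 TPM) of plate FACS086_4. These cells had Drd1 at 316.8 and 234.7 TPM and Ppp1r1b at 933.7 and 1681 TPM. These counts were made over cells and carry no test between subtypes.

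**Figure D3:**
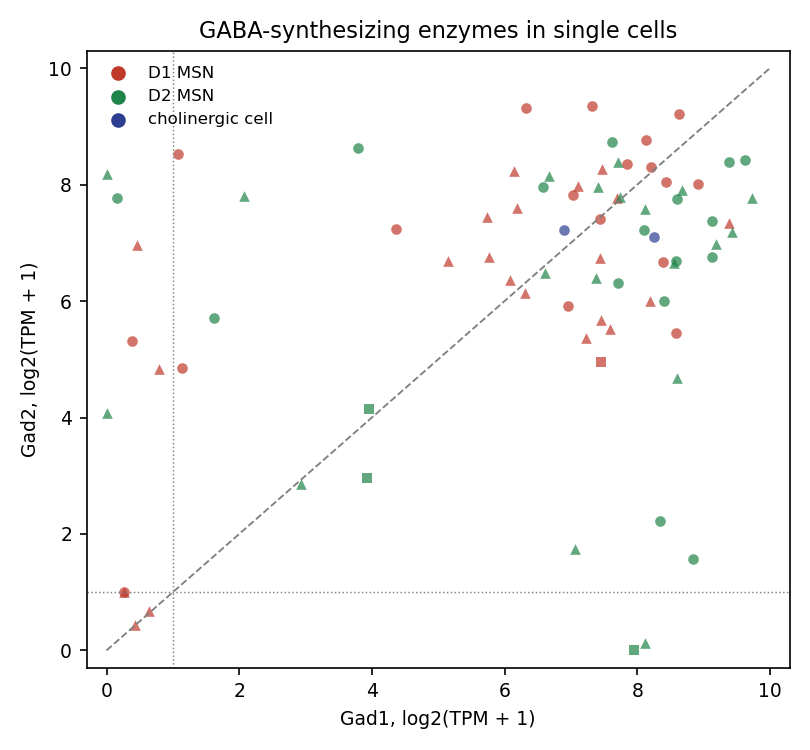
Gad2 against Gad1 in each cell as log2(TPM + 1), coloured by group and shaped by plate (circle FACS051_5, triangle FACS086_4, square FACS086_9), with equality as a dashed line and 1 TPM as dotted lines. Most cells lie in the upper right with both genes, and 25 of 38 D2 MSN fall below the dashed line against 14 of 40 D1 MSN.

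Transcripts of the vesicular transporter were sparse. Slc32a1 ranged from 0 to 37.9 TPM in D1 MSN (median 3.76 TPM) and from 0 to 64.5 TPM in D2 MSN (median 1.10 TPM). It was listed at 0 in 10 D1 MSN and 14 D2 MSN, and the highest 2 cells were D2 MSN. The means were nearly the same, 7.23 ± 8.63 and 7.10 ± 14.02 TPM (SD), with a log2 fold of 0.02. Within plates the fold was 0.98 on FACS051_5 and -0.66 on FACS086_4, so its direction depended on the plate. The transcript was found above 1 TPM in 65.0% of D1 MSN (26 of 40, 48.3 to 79.4) and in 52.6% of D2 MSN (20 of 38, 35.8 to 69.0). Slc32a1 accompanied Gad1 in 44 MSN, and 24 MSN had Gad1 but not Slc32a1 above 1 TPM. The gene spans chromosome 2 from 158610767 to 158615748 on the plus strand, opposite an antisense gene, Gm14205.

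Abat, the first enzyme of GABA breakdown, was abundant in cells that had it and low in the rest. In D1 MSN it ranged from 0 to 415.4 TPM (median 80.7 TPM), and in D2 MSN from 0 to 369.4 TPM (median 61.0 TPM). The means were 104.0 ± 102.3 and 90.7 ± 109.2 TPM (SD), a log2 fold of 0.20, with -0.02 and 0.14 within plates FACS051_5 and FACS086_4. The difference of the mean log2 values was 1.05, in the direction of D1 MSN. The share of cells with Abat above 1 TPM was 85.0% for D1 MSN (34 of 40, 70.2 to 94.3) and 71.1% for D2 MSN (27 of 38, 54.1 to 84.6). The median number of genes above 1 TPM was 5109 in D1 and 5923 in D2 MSN of plate FACS051_5, and 5730 and 4617 in those of plate FACS086_4. Over the 78 MSN the level of Abat had a Spearman rho of 0.48 with the number of genes above 1 TPM, the highest among the members, and the part of gene number in the difference was not tested. Without the cells below 4000 genes the fold of the mean TPM was -0.10, against 0.20 with all MSN. The difference of the mean log2 values was not computed without these cells. Abat lies on chromosome 16 at 8513429 to 8621568, plus strand.

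The subunits of the GABA-B receptor were found at very different levels. Gabbr1 ranged from 0.21 to 657.1 TPM in D1 MSN (median 140.2 TPM) and from 0 to 397.3 TPM in D2 MSN (median 125.2 TPM). The means were 183.0 ± 144.6 and 119.5 ± 100.7 TPM (SD), a log2 fold of 0.61. Within plate FACS051_5 the means were 219.4 and 183.5 TPM (fold 0.26), and within plate FACS086_4 they were 153.8 and 80.1 TPM (fold 0.93). The median number of genes above 1 TPM in D1 and D2 MSN was 5109 and 5923 on the first plate and 5730 and 4617 on the second. Over the 78 MSN, Gabbr1 had a Spearman rho of 0.41 with this number, whose part in the fold was not tested. Without the cells below 4000 genes the fold was 0.49. The fold of Gabbr1 was positive under all 13 alternatives, from 0.16 to 1.07, of which those that change only the pseudocount cannot reverse the sign. Of the genes found in at least 50% of MSN, 86.5% had a lower fold. The subtypes overlapped: 24 of 40 D1 MSN lay above the D2 median and 17 of 38 D2 MSN above the D1 median. The shares of cells with Gabbr1 were 92.5% for D1 MSN (37 of 40, 79.6 to 98.4) and 89.5% for D2 MSN (34 of 38, 75.2 to 97.1). Gabbr1 is on chromosome 17 at 37045966 to 37075067, plus strand.

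Gabbr2 was listed at 0 in 27 D1 MSN and 26 D2 MSN, so its median was 0 TPM in both subtypes. The highest D1 MSN reached 91.2 TPM and the highest D2 MSN 62.6 TPM. Only 22.5% of D1 MSN (9 of 40, 10.8 to 38.5) and 21.1% of D2 MSN (8 of 38, 9.55 to 37.3) had Gabbr2 above 1 TPM. The means were 5.94 ± 17.4 and 5.44 ± 13.9 TPM (SD), a log2 fold of 0.11 that was 0.51 and -0.27 within the plates. The depth behind a TPM value is unknown, so a cell listed at 0 is not shown to lack the transcript. Gabbr2 lies on chromosome 4 at 46662305 to 46991873, minus strand.

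Transcripts of both receptor subunits were found in few MSN, and a cell with Gabbr2 listed at 0 is not shown to lack it. The share with both was 32.1% at a limit of 0 TPM and 11.5% at 10 TPM. Gabbr1 and Gabbr2 were above 1 TPM together in 17 of 78 MSN (21.8%, 13.2 to 32.6), Gabbr1 alone in 54, Gabbr2 alone in 0 and neither in 7. Gabbr1 was above 1 TPM in 71 of 78 MSN, so most cells with Gabbr2 would hold it in any case. The median of Gabbr1 was 138.4 TPM in the 17 cells with Gabbr2 and 131.4 TPM in the 61 others. Cells with Gabbr2 had a median of 5967 genes above 1 TPM, the others 5256. In 3 MSN, all D2 MSN, Gabbr2 exceeded Gabbr1, with Gabbr2 between 16.7 and 62.6 TPM and Gabbr1 between 7.02 and 11.1 TPM.

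**Figure D4:**
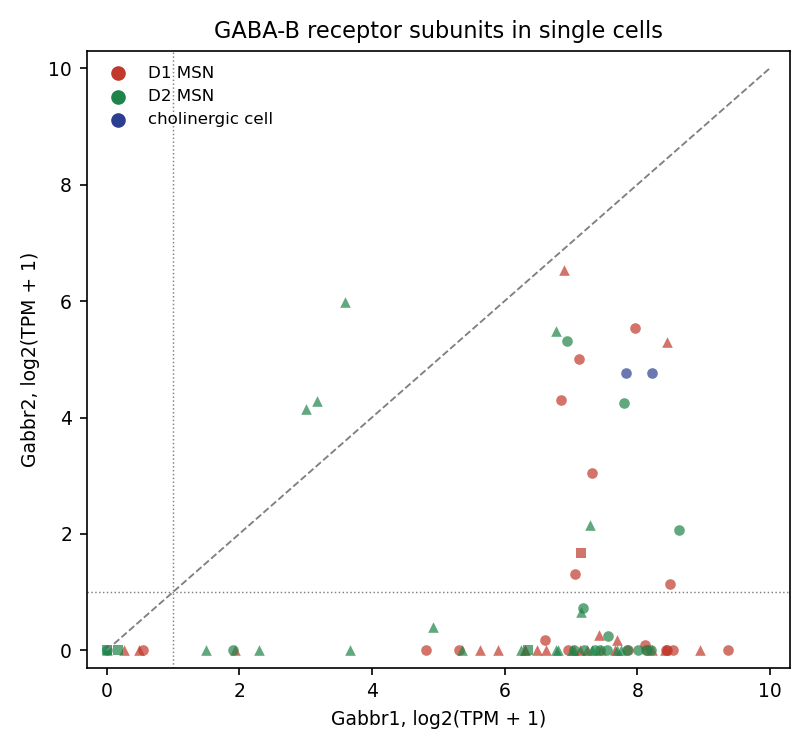
Gabbr2 against Gabbr1 in each cell as log2(TPM + 1), coloured by group and shaped by plate (circle FACS051_5, triangle FACS086_4, square FACS086_9), with equality as a dashed line and 1 TPM as dotted lines. Most cells lie along the bottom with Gabbr1 above 1 TPM and Gabbr2 at most 1 TPM. Above the dashed line lie 3 D2 MSN, and both cholinergic cells have transcripts of both subunits.

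The cholinergic cells had 5 of the 6 members above 1 TPM. Striatal cholinergic interneurons release acetylcholine and can carry transcripts of GABA enzymes. Gad1 was 304.4 TPM in the cell of well A08 and 117.8 TPM in that of well B02, and Gad2 was 135.7 and 149.0 TPM. Abat was 94.2 and 81.7 TPM in the same order. All these values lay inside the range of the MSN, and the log2 folds over the mean of the 78 MSN were -0.02, -0.21 and -0.15. Slc32a1 was listed at 0 in both cells. In the 10 MSN with the most genes (7274 to 8657 above 1 TPM), Slc32a1 was above 1 TPM in 9.

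The receptor subunits were on the high side in the cholinergic cells. Gabbr1 was 298.4 TPM in well A08 and 226.8 TPM in well B02, a log2 fold of 0.78 over the MSN. The higher value was exceeded by 9 of 78 MSN and the lower by 18. On the same plate, D1 MSN averaged 219.4 TPM of Gabbr1, and the fold over the D2 MSN of that plate alone was 0.51. Gabbr2 was 26.2 and 26.3 TPM, levels exceeded by 7 of 78 MSN, with a fold of 2.03. Over the 13130 genes with a fold, 33.2% had one above 1 in these cells, as did 1 of the 5 members with a fold. The cholinergic cells had more genes above 1 TPM than any MSN, and in the 10 MSN with the most genes Gabbr2 was above 1 TPM in 4. Against the D2 MSN of the same plate alone, the fold of Gabbr2 was 2.504, and with a pseudocount of 10 TPM it was 1.21. Both cells came from 1 plate, so the values describe these cells only.

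Genes that act next to the members were taken from lists by role. The median folds of the genes tested were 0.49 for GABA uptake and breakdown, 0.05 for glutamate and glutamine supply and -0.89 for receptor partners. They were 0.18 for GIRK channels and -0.06 for transcription factors, beside 0.08 for all genes. These lists held only 2 to 9 genes tested, so the medians describe no shift of a list. Those of 0.49 and 0.18 are midpoints of 2 folds of opposite sign, and -0.89 is the fold of Kctd8. The counts in each list stand beside 18.4% of all genes tested with a fold above 1 and 12.9% with one below -1. Among the genes of GABA uptake and breakdown described here, 3 of 5 were matched in the table and 2 tested, of which 1 had a fold above 1 (Aldh9a1) and 1 below -1 (Aldh5a1). Aldh5a1, which clears the product of Abat, ranged from 0 to 40.3 TPM in D1 MSN and from 0 to 94.7 TPM in D2 MSN, with a median of 0 TPM in each. It exceeded 1 TPM in 7 cells of the D1 and 12 of the D2 subtype (fold -1.58, with -1.81 and -1.25 within the plates), and was 31.2 and 15.6 TPM in the cholinergic cells of wells B02 and A08. Aldh9a1, an aldehyde dehydrogenase, exceeded 1 TPM in 7 cells of the D1 and 1 of the D2 subtype (fold 2.55). The astrocytic transporter Slc6a11 was at 78.6 TPM in the cell with astrocyte markers and above 1 TPM in 1 other MSN.

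For the supply of glutamate and glutamine, 10 of 10 genes were matched and 9 tested, 2 with a fold above 1 (Got2 and Glul) and 1 below -1 (Gls2). Got2, the mitochondrial aspartate aminotransferase, ranged from 0 to 310.2 TPM in D1 MSN (median 27.4 TPM) and from 0 to 131.5 TPM in D2 MSN (median 8.82 TPM). Its means were 67.3 and 23.9 TPM, a fold of 1.46, with 1.11 and 1.53 within the plates. Its cytosolic counterpart Got1, the most abundant of the list, had means of 222.8 and 223.2 TPM. The folds of Glul (glutamine synthetase) and Gls2 (a glutaminase) rested on single cells, since Glul was 1166 TPM in the cell with astrocyte markers and Gls2 was 662.2 TPM in 1 D2 MSN of plate FACS086_9. Within plates FACS051_5 and FACS086_4, the folds were 3.27 and -2.65 for Glul and 2.36 and 1.32 for Gls2.

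Pdxk is the kinase that makes pyridoxal phosphate, the cofactor of the decarboxylases and of GABA transaminase. It exceeded 1 TPM in 22 cells of the D1 and 24 of the D2 subtype, with medians of 2.60 and 4.03 TPM. The means were in the opposite order, 24.2 and 9.22 TPM (fold 1.30), with folds of -0.23 and 2.03 within the plates, and the highest value, 395.8 TPM, came from 1 D1 MSN.

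Among the auxiliary subunits and partners of the GABA-B receptor, 7 of 7 genes were matched and 5 tested. There were 2 folds above 1 (Jakmip1 and Kctd16) and 2 below -1 (Kctd12 and Mpdz), beside 18.4% and 12.9% of all genes tested. Jakmip1, which binds Gabbr1 and microtubules, was the most abundant. It ranged from 0 to 431.5 TPM in D1 MSN (median 111.2 TPM) and from 0 to 339.7 TPM in D2 MSN (median 9.46 TPM). The means were 132.6 and 62.9 TPM, a fold of 1.06 with 0.71 and 1.18 within the plates, and the cells above 1 TPM were 35 of 40 and 28 of 38. The auxiliary subunits of the Kctd family were sparser: Kctd8 exceeded 1 TPM in 10 cells of the D1 and 17 of the D2 subtype, Kctd12 in 8 and 12, and Kctd16 in 4 and 1. The folds of Kctd16 (3.17 and -0.72) and of Mpdz (-4.26 and 0.06) took opposite signs within plates FACS051_5 and FACS086_4, while those of Kctd12 were -0.72 and -3.37. Kctd8, Kctd12b and Kctd16 were listed at 0 in both cholinergic cells, and Kctd12 was at most 0.18 TPM there.

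The GIRK potassium channels, which open on GABA-B signalling in many neurons, were sparse in MSN. Of 4 genes, 3 were matched and 2 tested, with 1 fold above 1 (Kcnj3) and 1 below -1 (Kcnj9). Kcnj9 had the highest mean, 0.94 TPM for D1 and 3.21 TPM for D2 MSN, and exceeded 1 TPM in 2 and 3 cells. It was 9.62 and 26.6 TPM in the cholinergic cells of wells B02 and A08. Kcnj3 exceeded 1 TPM in 4 and 2 cells of the subtypes.

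The list of other vesicular transmitter transporters also held Slc6a5, a glycine transporter of the plasma membrane. Of its 6 genes, 5 were matched and 0 reached the mean needed for a fold in MSN. Slc18a2, the monoamine transporter, was the highest of them in MSN, with means of 0.31 and 1.65 TPM in the D1 and D2 subtypes. In the cholinergic cells of wells B02 and A08, Slc18a3 (the acetylcholine transporter, 1 of the cholinergic markers) was 292.8 and 420.6 TPM, and Slc17a8 (the glutamate transporter VGLUT3) was 247.4 and 167.5 TPM. In MSN, Slc17a8 averaged 0.20 TPM. Thus Slc32a1 was the vesicular transporter of this set with the highest mean in MSN and was at 0 in the cells that had Slc18a3 and Slc17a8.

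Of the transcription factors of GABA neurons described here, 6 of 7 were matched and 3 tested, with 0 folds above 1 and 1 below -1 (Sp9). Dlx6, the most abundant, had means of 33.6 and 25.1 TPM and folds of opposite sign on the plates (-0.48 and 1.78). Sp9 exceeded 1 TPM in 5 cells of the D1 and 16 of the D2 subtype, with means of 1.27 and 9.28 TPM. Lhx6 was 57.8 and 15.6 TPM in the cholinergic cells and averaged 0.20 TPM in MSN.

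**Figure D5:**
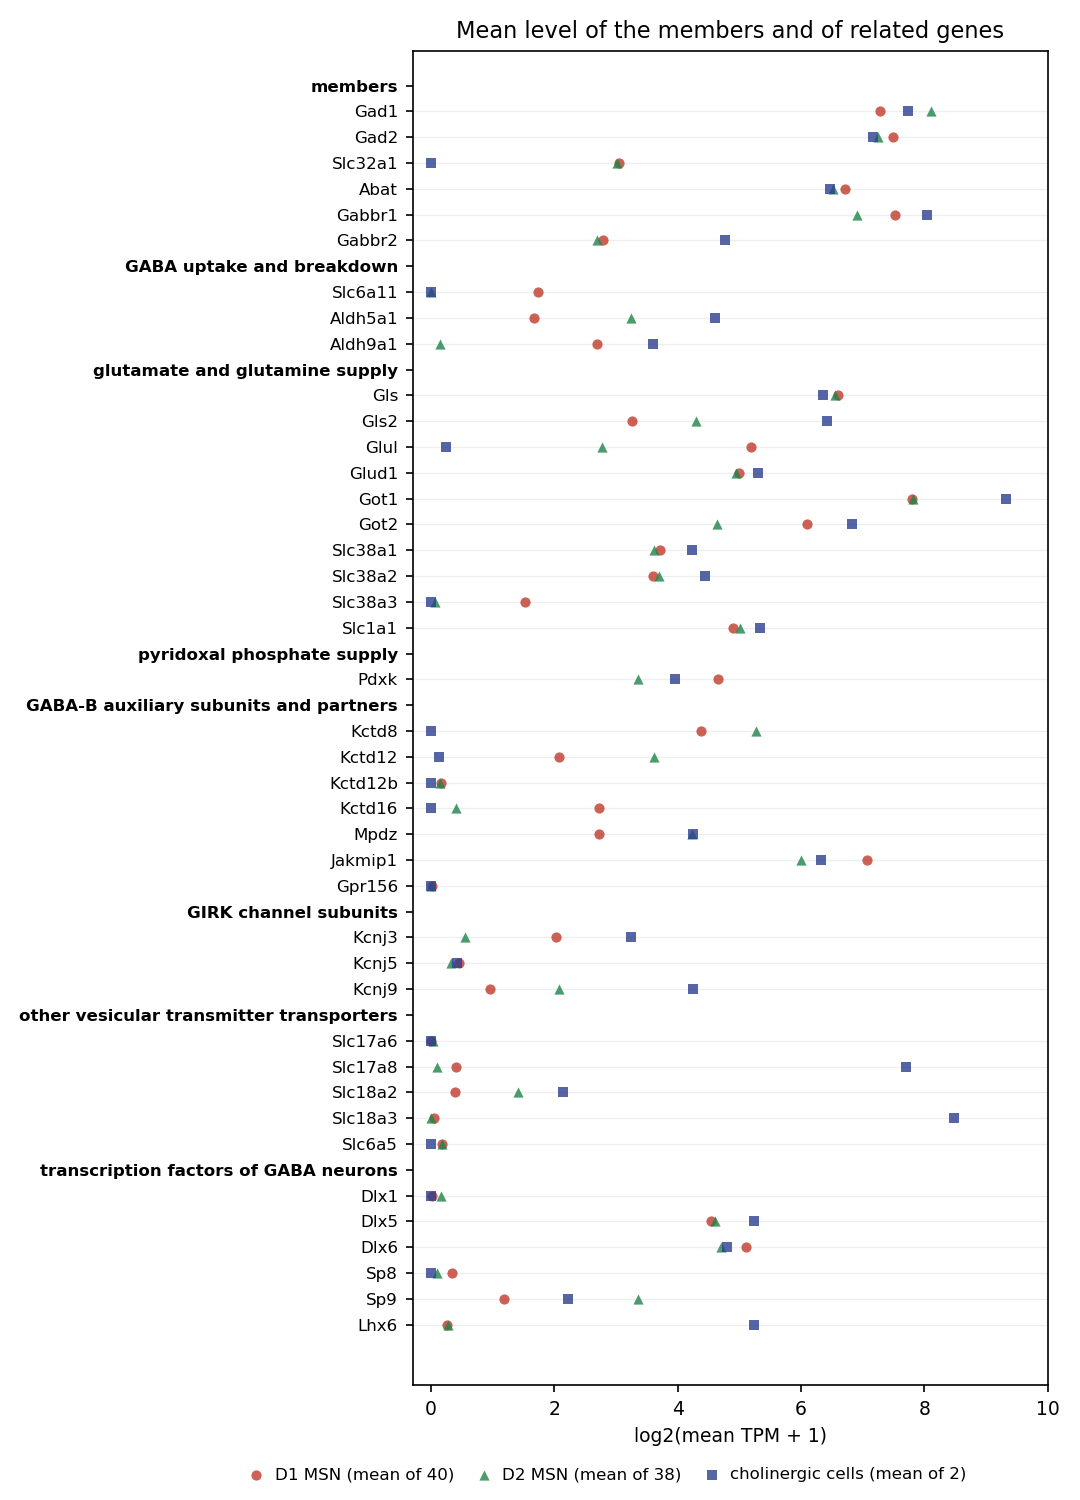
Mean level of the 6 members and of related genes in the table, as log2(mean TPM + 1), in D1 MSN (circles), D2 MSN (triangles) and cholinergic cells (squares), grouped by role. Slc32a1 and Kctd8 lie at 0 in the cholinergic cells, and Slc17a8 and Slc18a3 lie far above their MSN levels there. Slc6a5, grouped with the vesicular transporters, acts at the plasma membrane.

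The levels of the members varied largely apart from each other from cell to cell. Over the 78 MSN, Spearman's rho between pairs of members ran from -0.04 (Slc32a1 with Abat) to 0.30 (Gad2 with Abat), and was 0.23 for Gad1 with Gad2 and 0.10 for Gabbr1 with Gabbr2. Each member also had a positive rho with the number of genes above 1 TPM, from 0.26 for Gabbr2 to 0.48 for Abat, and its part in the pair values was not tested.

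The genes most like each member over the 78 MSN were taken from the genes found in at least 50% of them. For Gad1 they were Spock3 (rho 0.58), Snap25 (0.58), a protein of vesicle fusion, and Hpca (0.57), a calcium sensor. For Gad2 they were Syt1 (0.56), the calcium sensor of vesicle release, Fkbp1a (0.55) and Ywhaz (0.53), and for Slc32a1 they were Gsg1l, Pde1b (0.46 each) and Sec14l1 (0.45). Abat was followed by Top2b (0.59), Snx27 (0.56) and Gabrb1 (0.55), a GABA-A receptor subunit. Gabbr1 was followed by Thy1 (0.64), a surface protein of neurons, Celf5 (0.53) and Yars (0.51). These 15 genes had a rho of 0.38 to 0.53 with the number of genes above 1 TPM, which the members shared. After the mean rank of each plate and subtype was subtracted, Snap25 ranked 2, Spock3 6 and Hpca 26 for Gad1. The genes of the other members ranked from 1 to 11. Like Gad1, Spock3 and Hpca had higher means in D2 MSN (400.4 and 1727 TPM) than in D1 MSN (262.9 and 1038 TPM). Gabbr2 was found in too few cells for this comparison.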

How the data were processed

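Cells were dissociated from the dorsomedial striatum of double-transgenic reporter mice and sorted singly by FACS, and cDNA of each cell was sequenced as paired-end reads. The authors deposited TPM (a count of transcripts scaled by their length and to the same total in each cell) for 25160 genes in 80 cells. The paper's methods name bcl2fastq 2.18, STAR 2.5.0 with mm10/GRCm38 and annotation GRCm38.75, and featureCounts 1.5.1. The step from counts to TPM is not given in the sources used here, nor is the use of strand in counting. Reads were not counted anew, so the depth behind a TPM value is unknown and a value of 0 means that the gene was listed at 0. The TPM of the listed genes summed to between 506588 and 958040 per cell.

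The labels give reporter, plate and well and name no animal, so each group was taken as 1 sample and no test was made. The Drd2-EGFP cells whose Chat exceeded 100 TPM were set apart as cholinergic cells, and all other cells were kept as MSN. The paper states that usable data came from fewer than all 80 cells and the labels do not mark which, so a few cells counted here may be ones the authors left out. A fold is log2 of (mean TPM + 1) in D1 MSN over that in D2 MSN, and a cell counted for a gene above 1 TPM. Clopper-Pearson 95% intervals of shares cover counting error only. As background served the 14631 genes that averaged 1 TPM or more across MSN and were above 0 in some cell of each subtype.

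Named genes were the 6 members, the 3 genes with the highest Spearman rho to each member above 1 TPM in at least 50% of MSN, and, from lists of related genes, the gene with the highest mean and those past a log2 fold of 1 in size with a mean of at least 10 TPM and the same direction on both large plates. Other genes named were chosen after their values were seen. Some genes of the lists are not reported here, and list counts and medians were taken without them. Members and lists were chosen with earlier results of these data known. The alternatives changed the pseudocount, the averaging, the scaling, the detection limit, the plates and the cells. Leaving out the cells in wells D04 and B02, leaving out cells under 4000 genes, and the median TPM were chosen after seeing the data. Positions come from GENCODE M21 (GRCm38), a different annotation version from the one counted. The steps for folds and rho were tested on the real cells put into random groups, with known folds and a noisy copy of Gad2 planted. Versions were scipy 1.17.1, matplotlib 3.10.9, pandas 2.3.3 and numpy 2.4.6 under Python 3.11.15.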

Additional observations from a re-analysis of the deposited data

How the results depend on the processing

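No paired analysis was possible because the results come from no test. Plates hold cells of each subtype, and the folds within the large plates stand beside each member. Among the settings chosen at the outset, 27 values moved and 93 did not. Among those chosen after seeing the data, 4 moved and 36 did not. A value moved if it passed its spread or, for a count, changed by over 1.5 times. For a fold between subtypes the spread was the SD of its values on the 2 large plates, from 0.12 (Abat) to 1.16 (Slc32a1). For a fold in the cholinergic cells it was the SD of the 2 cells on the log2 scale, 0.0017 for Gabbr2. For a share it was the Clopper-Pearson interval. Each SD rests on 2 values, so the tally does not tell how stable a fold is. The Gad2 fold went from 0.23 to -0.22 without plate FACS051_5 and counted as not moved. Of 13 alternatives, the fold between the subtypes took a negative sign in 2 for Gad2, 2 for Slc32a1, 1 for Abat and 4 for Gabbr2, against a positive main value. Alternatives that changed only the pseudocount could not change a sign. With the difference of the mean log2 values, the fold of Abat was 1.05 and the number of members past 1 was 3. With plate FACS051_5 left out, the fold of Abat was 0.34 and 1 member (Gabbr1) passed 1. With plate FACS086_4 left out, the folds of Gad1 and Gabbr2 were -0.61 and 0.66, and with plate FACS086_9 left out, that of Abat was 0.078. Leaving out the cell in well D04 or that in well B02 moved no fold of a member beyond its spread. Without the cells below 4000 genes, that of Abat was -0.10. The median TPM gave folds of 1.18 for Slc32a1 and 0.40 for Abat, and 1 member past 1. At a fold limit of 0.5, 2 members passed. At a limit of 0 TPM, 100% of D1 MSN had Gad1, Gad2 and Gabbr1, and 96.2% of MSN had both decarboxylases. At 10 TPM, Gad2 was found in 81.6% of D2 MSN, Slc32a1 in 32.5% of D1 MSN and 21.1% of D2 MSN, both decarboxylases in 73.1% of MSN and both receptor subunits in 11.5%. In the cholinergic cells, the fold of Gad2 was -0.32 with TPM rescaled over the listed genes and -0.34 against D2 MSN of plate FACS051_5, where that of Abat was 0.18. The fold of Gabbr2 there was 2.19 and 1.21 with pseudocounts of 0.1 and 10 TPM, 1.91 after rescaling and 2.504 against D2 MSN of plate FACS051_5. Of the 3 genes most like Gad1, Gad2 and Abat, 1 each stayed among the first 3 after the mean rank of each plate and subtype was subtracted. The causes of these shifts were not tested. The unknown depth limits what a value listed at 0 can show, which bears most on Slc32a1 and Gabbr2.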
